A study of Rattus norvegicus with 12 samples.

Results

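The genes described here encode inhibitors of cyclin-dependent kinases (CDKs), the kinases that drive cells through the division cycle, in esophagi of rats given a carcinogen. All probe sets whose platform symbol was Cdkn2a, Cdkn2b, Cdkn2c, Cdkn1a, Cdkn1b or Cdkn1c were taken, which gave 9 probe sets of 6 genes, out of 31042 probe sets tested and 14217 named genes. The set was selected on the log2 signal of Cdkn2a, which was lower than in control in all 3 treated groups. The levels of Cdkn2a against control are therefore given as a description, with no test, whereas the other 5 genes entered by their symbol and were tested.

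RNA was measured on 12 Affymetrix arrays, 3 in each of 4 groups. Control rats had received subcutaneous injections of the solvent alone, 1 part dimethyl sulfoxide to 4 parts water. The other groups had received 0.3 mg/kg N-nitrosomethylbenzylamine (NMBA), a nitrosamine known to cause squamous tumors of the rat esophagus, in the same solvent on the same schedule of 3 injections per week for 5 weeks. Their tissue was labelled week 6, week 15 and week 29, for which the labels use the terms early, middle and late. The titles give a week and the tissue labels count weeks after NMBA, so whether the count runs from the first or the last injection was not settled. The sources used here do not give strain, sex, age or the week at which controls were sampled, so time and treatment cannot be told apart in the comparisons with control. In all groups the injection volume was 0.2 ml and rats were kept 3 per cage. The cage of each array is not given, so whether cage followed group is unknown. The labels do not say that each array came from a separate rat, and p-values cover only the spread among these arrays.

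Values are log2 probe set signals, so a difference of 1 is a doubling. The array medians lay between 6.41 and 6.48. Part of each esophagus had been stripped of its submucosal and muscle layers, and the squamous epithelial genes Krt5, at 12.37 to 13.70, and Krt13, at 13.17 to 14.55, were bright on every array. The skeletal muscle gene Acta1 was also bright on every array, at 14.03 to 14.71, so the libraries held muscle RNA. The mean log2 signal of 24 skeletal muscle genes ranged from 11.96 to 12.42 in control, 12.60 to 12.79 at week 6, 10.43 to 11.90 at week 15 and 12.40 to 12.58 at week 29. The week 15 libraries lay below all others on this score. In such bulk tissue, fewer cells of a type and less RNA per cell cannot be told apart.

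CDK inhibitors fall into a pair of families. The INK4 proteins, encoded by Cdkn2a, Cdkn2b and Cdkn2c among others, bind CDK4 and CDK6 and keep them from pairing with D-type cyclins, so that the retinoblastoma protein stays active and holds back E2F factors. The CIP/KIP proteins, encoded by Cdkn1a, Cdkn1b and Cdkn1c, bind complexes of cyclins with several CDKs, CDK2 among them. Cdkn2a also encodes, in another reading frame, the ARF protein, which restrains MDM2 and so stabilises p53. The locus is often lost or silenced in human squamous carcinomas, and in cultured human keratinocytes its products rise with repeated division.

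Cdkn2a and Cdkn2b are neighbours on chromosome 5, and their promoter windows are shown because the signal of the first was lower in every NMBA group while that of the second was not. Each window holds 250 bases before and 50 bases after a transcript start, taken from RefSeq on build GRCr8, on the minus strand. They lie at chr5:109107907-109108206 for Cdkn2a and chr5:109134806-109135105 for Cdkn2b, 26.9 kb apart. Capitals mark the GC box GGGCGG on either strand.
Cdkn2a: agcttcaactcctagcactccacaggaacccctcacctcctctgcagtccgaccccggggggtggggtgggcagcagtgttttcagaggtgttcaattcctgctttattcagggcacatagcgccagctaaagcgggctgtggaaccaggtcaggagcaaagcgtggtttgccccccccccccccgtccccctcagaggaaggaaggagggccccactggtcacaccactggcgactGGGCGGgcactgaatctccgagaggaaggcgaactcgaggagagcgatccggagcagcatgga
Cdkn2b: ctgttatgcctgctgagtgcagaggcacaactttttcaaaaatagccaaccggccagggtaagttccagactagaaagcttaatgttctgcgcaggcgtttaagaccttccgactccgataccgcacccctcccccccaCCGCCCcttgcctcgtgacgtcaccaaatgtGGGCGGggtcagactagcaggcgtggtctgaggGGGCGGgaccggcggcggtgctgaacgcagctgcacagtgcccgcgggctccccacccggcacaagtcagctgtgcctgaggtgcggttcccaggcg
The start used for Cdkn2a lies inside the annotated gene span, so another annotated start lies further upstream. The Cdkn2a window held 1 GC box and the Cdkn2b window held 3, and 33.1% of the 33469 promoter windows in the table held at least 1. The E-box CANNTG, which reads the same on both strands, matched 0 times in the Cdkn2a window and 3 times in that of Cdkn2b, against 72.1% of all windows with a match. Neither CCAAT nor TATAAA, searched on both strands, matched in either window, against 37.5% and 14.2% of all windows. The windows of Cdkn2c, Cdkn1a and Cdkn1b held 1, 0 and 1 GC boxes. These matches describe letters in the reference sequence, which the arrays did not measure.

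Cdkn2a had lower signal on every NMBA array than on any control array. Probe set 1369194_a_at read 6.39, 6.04 and 6.59 in the control samples, 5.52, 5.27 and 5.55 at week 6, 5.28, 5.57 and 5.73 at week 15, and 5.32, 5.20 and 5.25 at week 29. The lowest control array thus stood above the highest NMBA array, which was at week 15. The group means were 6.34 ± 0.28 in control, 5.45 ± 0.15 at week 6, 5.53 ± 0.22 at week 15 and 5.26 ± 0.06 at week 29 (SD, n = 3 each). The log2 difference from control was -0.89 ± 0.15 (SE) at week 6, -0.81 ± 0.15 at week 15 and -1.08 ± 0.15 at week 29, or 53.9%, 56.9% and 47.2% of the control signal. All of these share the same 3 control arrays. Of all probe sets, 0.718% had every NMBA array below every control array and 12.2% had a lower mean in all 3 groups, which places the pattern by which Cdkn2a was chosen and tests nothing. The mean signal of Cdkn2a over the 12 arrays, 5.64, was below the median probe set mean of 6.44, and the deposited values do not tell transcripts for the INK4 protein from those for ARF.

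**Figure D1:**
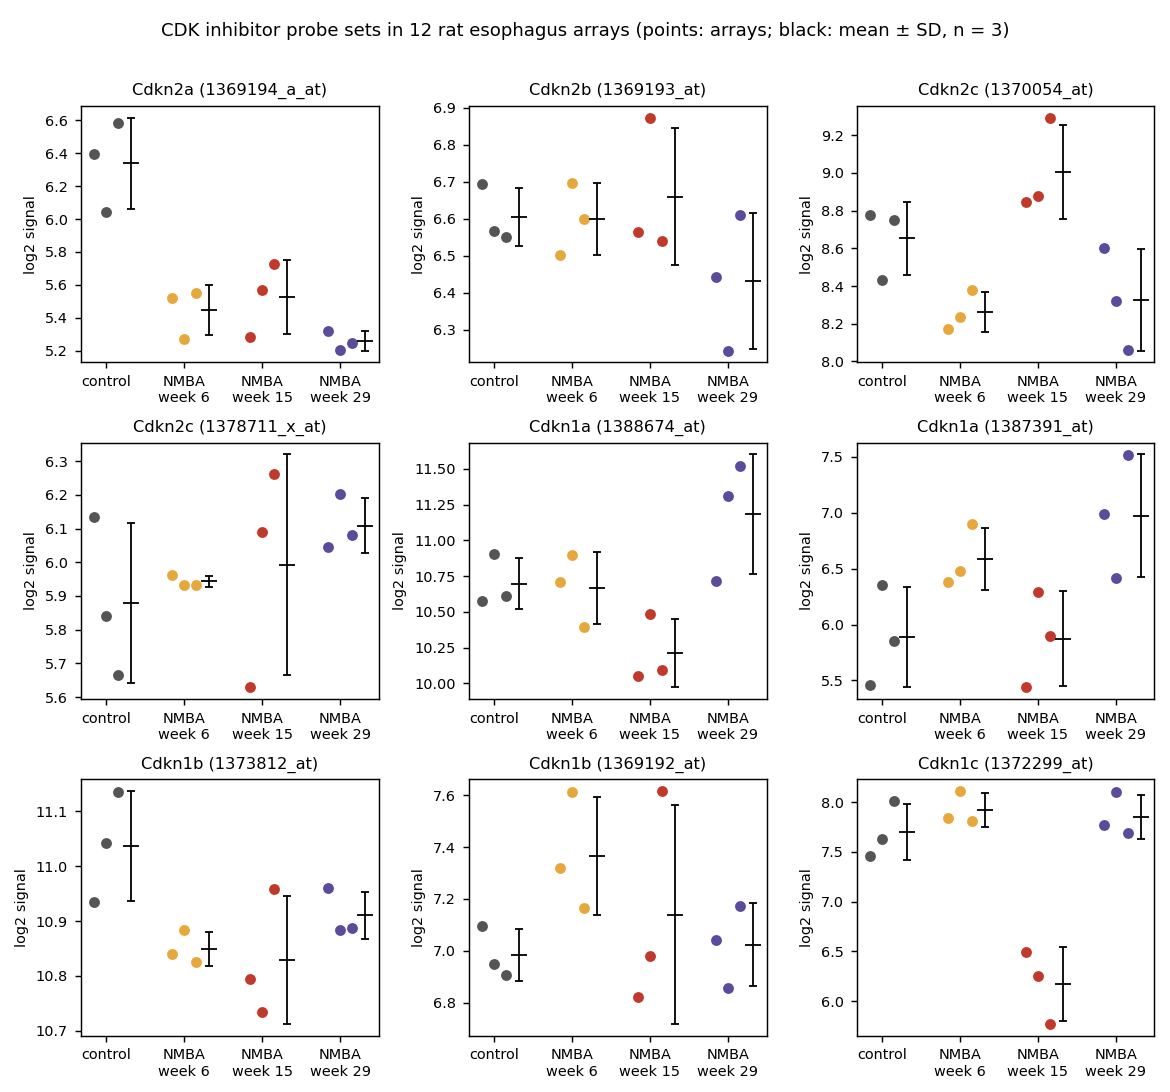
Log2 signal of the 9 probe sets of 6 CDK inhibitor genes on each of the 12 arrays, by group, with the group mean ± SD in black (n = 3) and a separate vertical scale in each panel. Cdkn2a was lower on all 9 NMBA arrays than on the 3 control arrays, and Cdkn1c was low on the 3 week 15 arrays only.

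Among the NMBA groups, which were not compared in choosing the genes, no difference in Cdkn2a passed the test. Week 15 differed from week 6 by 0.08 ± 0.15 (SE; 95% interval -0.24 to 0.40; adjusted p = 0.704, limma with Benjamini-Hochberg adjustment over all probe sets). Week 29 differed from week 15 by -0.27 ± 0.15 (-0.59 to 0.05; adjusted p = 0.181) and from week 6 by -0.19 ± 0.15 (-0.51 to 0.13; adjusted p = 0.717). In the order of the means, which ran from control through week 15 and week 6 to week 29, no difference among the NMBA groups went beyond the spread, and the step from control to week 15 was not tested. Endothelial genes were also lower after NMBA: the mean log2 signal of 7 of them was 8.87 ± 0.17 in control, 8.38 ± 0.03 at week 6, 8.49 ± 0.22 at week 15 and 8.17 ± 0.16 at week 29 (SD, n = 3). Of the 7, 3, 3 and 5 fell against control, beside 3.76%, 8.38% and 10.8% of all genes. Mean scores of fibroblast, smooth muscle, myeloid and glandular genes were likewise below control in every NMBA group. Those of skeletal muscle, basal, suprabasal, lymphocyte and neural genes were not. The part of any of these cell types in the Cdkn2a signal was not tested.

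Cdkn2b, the neighbouring INK4 gene and a known target of TGF-beta signalling, stayed within a narrow band. Probe set 1369193_at read 6.69, 6.57 and 6.55 in control, 6.50, 6.70 and 6.60 at week 6, 6.57, 6.87 and 6.54 at week 15 and 6.44, 6.24 and 6.61 at week 29. The groups overlapped throughout. The difference from control was -0.01 at week 6 (95% interval -0.26 to 0.25; adjusted p = 0.983), 0.05 at week 15 (-0.20 to 0.31; adjusted p = 0.802) and -0.17 at week 29 (-0.43 to 0.09; adjusted p = 0.335). Whether Cdkn2a and Cdkn2b differed in their change was not tested, since Cdkn2a was chosen for its own.

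Of 5 other measured genes near the pair, 0, 1 and 1 passed the test against control at weeks 6, 15 and 29, all lower. Mtap, a methionine salvage enzyme gene beside Cdkn2a, fell at week 29 by -0.72 (adjusted p = 0.0192), and its differences at weeks 6 and 15 were -0.59 (adjusted p = 0.0523) and -0.14. Klhl9, an adaptor of a ubiquitin ligase, fell at week 15 by -0.50 (adjusted p = 0.0154). Klhl9 also fell from week 6 to week 15 by -0.82, and from week 15 to week 29 Klhl9 and Elavl2 rose by 0.62 and 0.28 while Mtap fell by -0.58. All genes near the pair that passed against control lost their call in alternatives given with the role lists.

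Cdkn2c, an INK4 gene linked in other tissues to E2F activity and cell cycle exit, was measured by 2 probe sets, of which 1 passed a test. The brighter, 1370054_at, read 8.78, 8.43 and 8.75 in control, 8.17, 8.23 and 8.38 at week 6, 8.84, 8.88 and 9.29 at week 15, and 8.60, 8.32 and 8.06 at week 29. All week 15 arrays stood above all others. It rose from week 6 to week 15 by 0.74 ± 0.16 on the log2 scale, 1.67-fold (SE, n = 3; adjusted p = 0.00335), and fell from week 15 to week 29 by -0.68 ± 0.16, 1.60-fold (adjusted p = 0.00532). Against control it differed by -0.39 ± 0.16 at week 6 (adjusted p = 0.14), 0.35 ± 0.16 at week 15 (adjusted p = 0.192) and -0.33 ± 0.16 at week 29 (adjusted p = 0.174), none of which passed.

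The dimmer Cdkn2c probe set, 1378711_x_at, whose suffix marks probes that may also match other sequences, had group means of 5.88 ± 0.24, 5.94 ± 0.02, 5.99 ± 0.33 and 6.11 ± 0.08 in the same order and passed no test. Its correlation with the brighter one over the 12 arrays was 0.08, and 0.37 once group means were removed. The changes of Cdkn2c therefore rest on 1 probe set. With the muscle score as a covariate they became 0.26 (adjusted p = 0.591) and -0.26 (adjusted p = 0.566). With the GAPDH 3' minus 5' signal, a measure of RNA quality, the first was 0.69 (adjusted p = 0.0656). Arrays read 0.22 to 0.53 on that signal in control and 0.22 to 0.60 at week 15. At week 6 they read 0.07 to 0.15, and at week 29 they read 0.13 to 0.21. The GAPDH signal thus differed between groups and cannot be told apart from them.

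Cdkn1a encodes the CIP/KIP inhibitor best known as a target of p53 after DNA damage. Its brighter probe set, 1388674_at, read 10.58, 10.91 and 10.61 in control, 10.71, 10.89 and 10.40 at week 6, 10.05, 10.48 and 10.09 at week 15, and 10.72, 11.31 and 11.52 at week 29. The 2 lowest values were at week 15 and the 2 highest at week 29, and these groups did not overlap each other. It rose from week 15 to week 29 by 0.97 ± 0.20, or 1.96-fold (SE, n = 3; adjusted p = 0.00261). Against control the difference was -0.03 at week 6 (adjusted p = 0.943), -0.49 ± 0.20 at week 15 (adjusted p = 0.157) and 0.49 ± 0.20 at week 29 (adjusted p = 0.119), and the week 29 and control arrays overlapped. With the muscle score as a covariate the step from week 15 to week 29 was 0.65 (adjusted p = 0.295), and without replicate 1 of week 29 the difference from control was 0.72 (adjusted p = 0.0172).

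The dimmer Cdkn1a probe set, 1387391_at, read 5.46, 6.35 and 5.85 in control, 6.38, 6.48 and 6.90 at week 6, 5.44, 6.29 and 5.89 at week 15, and 6.99, 6.42 and 7.51 at week 29. The week 6 and week 29 arrays lay above those of control and week 15. It rose at week 29 by 1.09 ± 0.30 against control, 2.12-fold (adjusted p = 0.0321), and by 1.10 ± 0.30 against week 15, 2.15-fold (adjusted p = 0.0117). At week 6 the difference from control was 0.70 ± 0.30 (adjusted p = 0.157). The call against control was lost with the muscle score (1.01, adjusted p = 0.0572) or the GAPDH signal (0.50, adjusted p = 0.32) as a covariate, without replicate 1 or 3 of control (0.87 and 1.07, adjusted p = 0.116 and 0.091) and without replicate 3 of week 29 (0.82, adjusted p = 0.144). The call against week 15 was lost with the same covariates (0.77 and 0.51, adjusted p = 0.425 and 0.187), without replicate 1 of week 15 (0.88, adjusted p = 0.053) and without replicate 3 of week 29 (0.83, adjusted p = 0.0604). The probe sets of Cdkn1a correlated at 0.65 over the 12 arrays, and at 0.31 once group means were removed.

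Cdkn1b, whose protein restrains CDK2 in resting cells and is controlled largely by its degradation, passed no test in any comparison of all arrays. Probe set 1373812_at had group means of 11.04 ± 0.10 in control, 10.85 ± 0.03 at week 6, 10.83 ± 0.12 at week 15 and 10.91 ± 0.04 at week 29 (SD, n = 3). Its differences from control were -0.19 ± 0.09 (SE; adjusted p = 0.198), -0.21 ± 0.09 (adjusted p = 0.165) and -0.13 (adjusted p = 0.339). The dimmer 1369192_at had means of 6.98 ± 0.10, 7.36 ± 0.23, 7.14 ± 0.42 and 7.02 ± 0.16, with a highest difference from control of 0.38 ± 0.18 at week 6 (adjusted p = 0.212). Between weeks 15 and 6 it differed by -0.23 (adjusted p = 0.357), and by -0.46 (adjusted p = 0.0276) without replicate 3 of week 15. The correlation of the pair over the 12 arrays was -0.05, and 0.51 once group means were removed.

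Cdkn1c, an imprinted CIP/KIP gene expressed from the maternal copy in rodents, was low at week 15 and near control at the other times. Probe set 1372299_at read 7.46, 7.63 and 8.01 in control, 7.84, 8.11 and 7.81 at week 6, 6.49, 6.25 and 5.77 at week 15, and 7.77, 8.10 and 7.69 at week 29. The week 15 arrays lay below all 9 others. Cdkn1c fell at week 15 by -1.53 ± 0.19 against control, to 34.7% of its level (SE, n = 3; 95% interval -1.95 to -1.11; adjusted p = 0.00275). It was also lower at week 15 than at week 6, by -1.75 ± 0.19, 3.36-fold (adjusted p = 8.32e-05), and rose again by 1.68 ± 0.19, 3.20-fold, to week 29 (adjusted p = 8.39e-05). Against control it differed by 0.22 at week 6 (-0.20 to 0.64; adjusted p = 0.508) and 0.15 at week 29 (-0.27 to 0.57; adjusted p = 0.617).

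Muscle and fibroblast genes were also lowest at week 15. The mean over 8 fibroblast genes was 10.72 in control, 10.43 at week 6, 9.61 at week 15 and 10.30 at week 29, and 7 of the 8 fell at week 15 against control. Of 24 skeletal muscle genes, 3 fell at week 15 against control, 22 were lower at week 15 than at week 6 and 19 were higher at week 29 than at week 15. With the muscle score as a covariate the Cdkn1c difference at week 15 was -1.11 (adjusted p = 0.138) from control and -1.13 (adjusted p = 0.0853) from week 6, and the step from week 15 to week 29 was 1.15 (adjusted p = 0.0472). The part of fibroblast genes in the Cdkn1c change was not tested. Leaving out 1 array at a time kept the difference from control between -1.69 and -1.33, with adjusted p of 0.0145 at most.

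**Figure D2:**
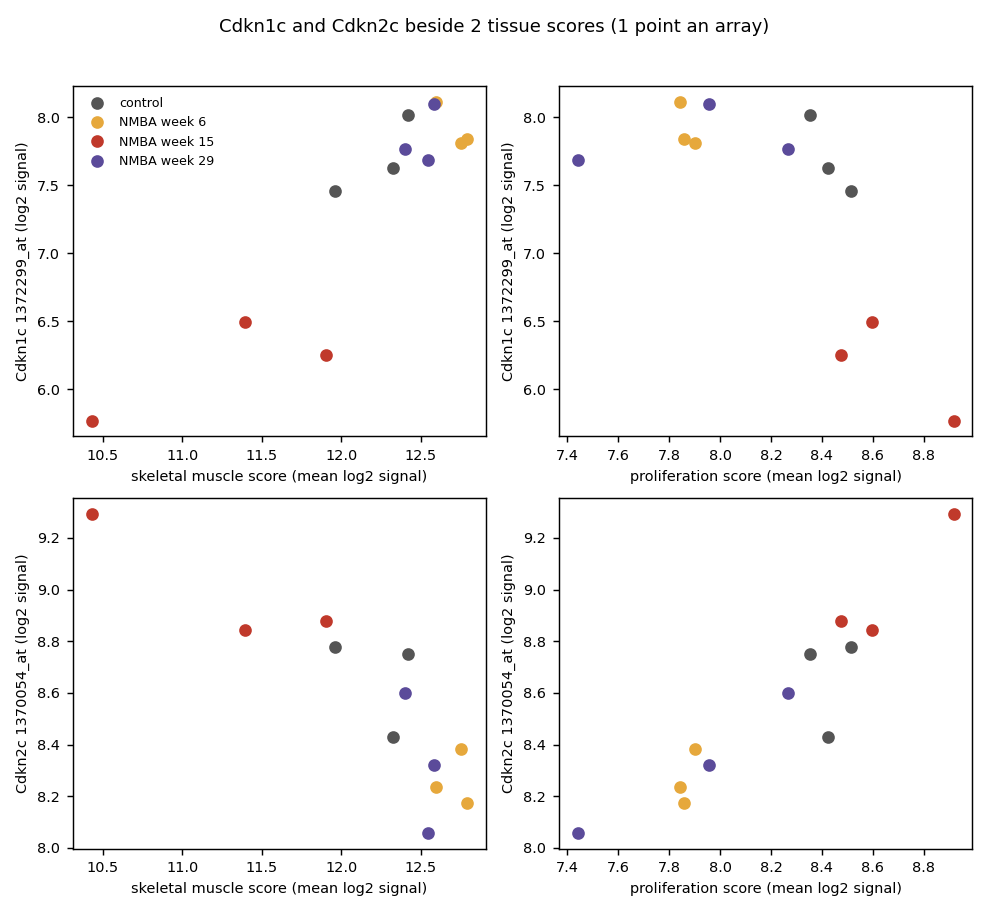
Log2 signal of Cdkn1c (top) and of Cdkn2c probe set 1370054_at (bottom) against the mean log2 signal of skeletal muscle genes (left) and of proliferation genes (right), 1 point per array, coloured by group. The 3 week 15 arrays had the lowest muscle scores, 10.43 to 11.90, the lowest Cdkn1c and the highest Cdkn2c values.

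The tested inhibitor probe sets were counted beside all probe sets. At week 6 none of the 8 tested passed, where 7.54% of all probe sets did (5.11% higher, 2.44% lower). At week 15 only Cdkn1c did, 1 of 8, where 7.91% of all probe sets did (1.7% higher, 6.21% lower). At week 29 only Cdkn1a probe set 1387391_at did, where 15.2% did (7.72% higher, 7.44% lower). The arrays of the NMBA group did not overlap those of control for 4, 3 and 1 of the 8 at weeks 6, 15 and 29, beside 35.9%, 26.4% and 37.7% of all probe sets.

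Between the NMBA groups all 9 probe sets were tested. From week 6 to week 15, 2 of 9 passed, Cdkn2c higher and Cdkn1c lower, beside 37.8% of all probe sets (20.3% higher, 17.4% lower), and 3 did not overlap, beside 48.8%. From week 15 to week 29, 4 of 9 passed, both of Cdkn1a and that of Cdkn1c higher and 1 of Cdkn2c lower, beside 35.4% of all probe sets (17.1% higher, 18.3% lower), and 4 did not overlap, beside 44.6%. With 9 probe sets, these shares are no result about the inhibitors as a set. Between weeks 29 and 6 limma called 0 of 9 and 0 of all probe sets, although 3005 probe sets, 9.68%, had an unadjusted p under 0.05, and 2 of 9 did not overlap, beside 17.5%. The comparisons share arrays and are not independent.

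**Figure D3:**
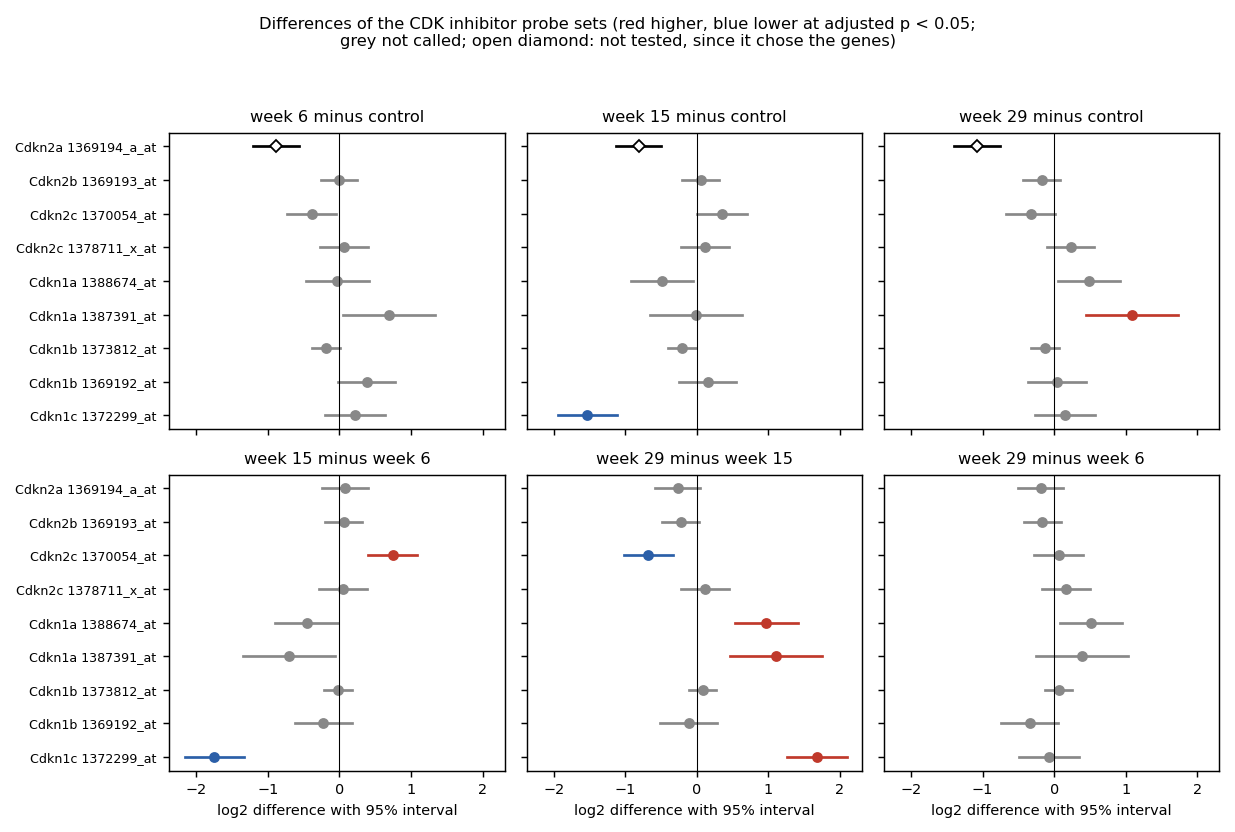
Log2 difference with its 95% interval (limma, 3 arrays per group) for the 9 probe sets in each of the 6 comparisons; red is higher and blue lower at an adjusted p under 0.05, grey passed no test, and open diamonds are Cdkn2a against control, which was not tested. Cdkn1c at week 15 stood at -1.53 against control and -1.75 against week 6.

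The genes around the inhibitors were read from 10 lists by role, with 101 of 112 genes measured. Against control, 4 were higher and 9 lower at week 6 (12.9% passed), 1 higher and 10 lower at week 15 (10.9%) and 9 higher and 22 lower at week 29 (30.7%). Of all genes, 5.07% were higher and 3.76% lower at week 6 (8.83% in all), 1.54% and 8.38% at week 15 (9.92%), and 8.44% and 10.8% at week 29 (19.3%). From week 6 to week 15, 43 rose and 21 fell (63.4%, beside 43.9% of all genes, 22.7% up and 21.2% down). From week 15 to week 29, 21 rose and 41 fell (61.4%, beside 43.6%, 21.1% up and 22.4% down). In the comparison of weeks 29 and 6 none passed. With the skeletal muscle score as a covariate the counts fell from 13 to 0, 11 to 0 and 31 to 22 against control at weeks 6, 15 and 29, from 64 to 2 between weeks 15 and 6 and from 62 to 7 between weeks 29 and 15. With the GAPDH signal they were 0, 10, 1, 25 and 42, and with the compared groups fitted alone week 15 had 0. Every call of a listed gene against control at weeks 6 and 15 named here was thus lost in at least 1 of these fits, and at week 29 only that of Id1 was kept with the GAPDH signal. Between weeks 15 and 6 only Rnf2 and Cul4a passed with the muscle score, and between weeks 29 and 15 only Smad3, Gadd45a, Ccna1, Rnf2, Id1, Tfdp2 and Cul4a.

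Epithelial genes moved between the same groups. The mean log2 signal of 10 basal keratinocyte genes was 11.53, 10.98, 11.74 and 10.90 in control and at weeks 6, 15 and 29, and that of 11 suprabasal genes was 10.13, 9.28, 10.65 and 8.81. From week 6 to week 15, 9 of the 10 basal and 10 of the 11 suprabasal genes rose, and from week 15 to week 29, 9 and 10 fell. The part of the epithelial genes in the counts of listed genes was not tested.

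The CDKs and cyclins that these proteins inhibit were counted over 11 genes. Ccnd1, the D-type cyclin that activates CDK4 and CDK6, fell at week 6 by -0.69 (adjusted p = 0.0296) and at week 29 by -1.03 (adjusted p = 0.00753), with a difference of 0.06 at week 15 (adjusted p = 0.851). Ccnd2 fell at week 29 by -1.22 (adjusted p = 0.0137) and Ccne1, the partner of CDK2, by -0.63 (adjusted p = 0.0333). Ccna1, a second A-type cyclin, went the other way and rose at week 6 by 0.82 (adjusted p = 0.0236) and at week 29 by 0.90 (adjusted p = 0.0108). Cdk4 passed no test against control (-0.30, 0.40 and -0.11) but rose from week 6 to week 15 by 0.70 (adjusted p = 0.00218) and fell to week 29 by -0.51 (adjusted p = 0.0124). Cdk6 differed from control by -0.04, -0.01 and -0.01. From week 6 to week 15, 7 of the 11 rose, led by Cdk1 (1.05), Ccna2 (0.99) and Ccnd2 (0.93), and Ccna1 (-1.35) and Ccnd3 (-0.25) fell. From week 15 to week 29 Ccna1 rose (1.44) and 6 fell, led by Ccnd2 (-1.67), Ccnd1 (-1.09) and Cdk1 (-0.91). The calls of Ccnd1 and Ccna1 at week 6 were lost with the muscle score or the GAPDH signal, and those at week 29 with the GAPDH signal.

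Downstream of the INK4 proteins, 12 genes of the retinoblastoma and E2F families were measured. Rb1, which encodes the retinoblastoma protein, fell at week 15 by -0.40 (adjusted p = 0.0207), and rose again by 0.60 from week 15 to week 29 (adjusted p = 0.000302). Its relative Rbl1 fell at week 29 by -0.91 (adjusted p = 0.0213), as did E2f7 by -0.71 (adjusted p = 0.0323) and E2f5 by -0.69 (adjusted p = 0.0238). E2f6, a repressor of the family, rose at week 6 by 0.70 (adjusted p = 0.0475), fell at week 15 by -0.74 (adjusted p = 0.0373) and was higher at week 29 by 0.76 (adjusted p = 0.0254). E2f8 fell at week 6 by -0.62 (adjusted p = 0.0401), and Tfdp2, an E2F partner, rose at week 29 by 0.60 (adjusted p = 0.0121). Between weeks 6 and 15 Rbl1 (0.92), E2f8 (0.80) and E2f7 (0.72) rose most and E2f6 (-1.44), Tfdp2 (-0.76) and Rb1 (-0.63) fell, and from week 15 to week 29 E2f6 (1.504) and Tfdp2 (1.00) rose and Rbl1 (-1.15), E2f5 (-0.87) and E2f7 (-0.82) fell most. The calls of this group at weeks 6 and 15 were lost with the muscle score. Of the 12, 1, 0 and 2 were higher and 1, 2 and 3 lower at weeks 6, 15 and 29 against control.

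Of 10 measured genes on the ARF, MDM2 and p53 axis, several known p53 targets changed with the stage. Mdm2 itself differed from control by 0.02, 0.00 and -0.07 and passed no test. Gadd45a, a stress gene induced by p53, rose at week 6 by 0.90 (adjusted p = 0.0211), fell at week 15 by -1.02 (adjusted p = 0.00767) and rose at week 29 by 0.93 (adjusted p = 0.0104). Ccng1 fell at week 15 by -0.78 (adjusted p = 0.0259) and rose at week 29 by 0.64 (adjusted p = 0.039). Sesn2, another stress gene, fell at week 6 by -0.55 (adjusted p = 0.0483) and at week 29 by -0.76 (adjusted p = 0.0133), and Zmat3 fell at week 6 by -0.47 (adjusted p = 0.0236). Between weeks 6 and 15 Sesn2 (0.98), Zmat3 (0.46) and Aen (0.39) rose and Gadd45a (-1.92), Ccng1 (-1.35) and Sesn1 (-0.63) fell. All 6 went the opposite way from week 15 to week 29, Gadd45a by 1.95, Ccng1 by 1.42, Sesn1 by 0.53, Sesn2 by -1.19, Aen by -0.47 and Zmat3 by -0.29. The calls of these genes at week 6 were lost with the muscle score or the GAPDH signal, and those at week 15 with the muscle score or the compared groups alone. Counted against control, 1, 0 and 2 of the 10 were higher and 2, 2 and 1 lower at weeks 6, 15 and 29.

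Among 12 measured polycomb proteins and other repressors known to act on the Cdkn2a and Cdkn2b locus, none passed the test as higher than control in any group. Of all genes, 5.07%, 1.54% and 8.44% did so at weeks 6, 15 and 29, so with 12 genes this is no result about the repressors. Id1, a repressor of Cdkn2a in cultured cells, fell at week 6 by -0.92 (adjusted p = 0.0209) and at week 29 by -1.22 (adjusted p = 0.00465). Tbx3, a T-box repressor of the ARF promoter, fell at week 15 by -1.11 (adjusted p = 0.0485) and rose from there to week 29 by 2.00 (adjusted p = 0.000427). At weeks 6 and 29 its difference from control was 0.88 (adjusted p = 0.0972) and 0.89 (adjusted p = 0.0717), with every array above every control array. Twist1 fell at week 29 by -0.57 (adjusted p = 0.0325) and Rnf2, a polycomb ubiquitin ligase, at week 15 by -0.40 (adjusted p = 0.0458). In the step from week 6 to week 15 Pcgf2 (0.62) and Id1 (0.47) rose and Tbx3 (-2.00), Rnf2 (-0.67) and Cbx7 (-0.49) fell, and from week 15 to week 29 Rnf2 (0.55) and Cbx7 (0.48) rose and Id1 (-0.76) and Suz12 (-0.44) fell. Ezh2, the histone methyltransferase of polycomb, differed from control by -0.40 (adjusted p = 0.196), 0.08 and -0.32. In all, 1, 2 and 2 of the 12 were lower at weeks 6, 15 and 29, beside 3.76%, 8.38% and 10.8% of all genes. The calls at weeks 6 and 15 were lost with the muscle score.

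Of 16 activators of CDK inhibitor genes, 0, 1 and 2 were higher and 1, 1 and 3 lower than control at weeks 6, 15 and 29. Smad3, which carries TGF-beta signals to promoters such as those of Cdkn2b and Cdkn1a, fell at week 15 by -0.72 (adjusted p = 0.0106) and rose at week 29 by 0.58 (adjusted p = 0.0185). Cebpa rose at week 15 by 0.58 (adjusted p = 0.0201), and Klf6, Ets1 and Foxo1 fell at week 29 by -0.51, -0.48 and -0.39 (adjusted p = 0.00954, 0.0212 and 0.0294). Sp1, a factor that binds GC boxes, fell at week 6 by -0.39 (adjusted p = 0.0414), and Foxo4 rose at week 29 by 0.73 (adjusted p = 0.0312). Cebpa (0.94), Klf4 (0.74) and Sp1 (0.43) rose most from week 6 to week 15 and Smad3 (-1.17) and Foxo4 (-0.99) fell, and from week 15 to week 29 Foxo4 (1.38) and Smad3 (1.30) rose and Cebpa (-0.96), Klf4 (-0.93) and Foxo1 (-0.47) fell most. Parts of the ubiquitin ligases that degrade CIP/KIP proteins, 9 genes, had 1, 0 and 2 higher and 0, 1 and 1 lower. Cul4a, a ligase scaffold, fell at week 15 by -0.51 (adjusted p = 0.00521). Kpna1, which is counted in this list, encodes a nuclear import factor rather than a ligase part. It rose at week 6 by 0.95 (adjusted p = 0.0288) and at week 29 by 0.71 (adjusted p = 0.048). At week 29 Rnf123 rose by 0.47 (adjusted p = 0.0191) and Cul4b fell by -0.40 (adjusted p = 0.0303). Dtl (0.68), Cks1b (0.44) and Cul4b (0.37) rose from week 6 to week 15 and Kpna1 (-1.11), Cul4a (-0.73) and Skp1 (-0.68) fell most, and from week 15 to week 29 Kpna1 (0.87), Rnf123 (0.72) and Cul4a (0.71) rose most and Cks1b (-0.50) and Cul4b (-0.42) fell. The calls of both lists at weeks 6 and 15 were lost with the muscle score.

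Around Cdkn1c, 8 genes of the imprinted cluster were measured. None passed at week 6, Cd81 fell at week 15 by -0.37 (adjusted p = 0.0293), and Phlda2 and Slc22a18 fell at week 29 by -0.70 (adjusted p = 0.0497) and -0.52 (adjusted p = 0.041). The imprinted RNA H19 went in the direction of Cdkn1c between stages, with a fall of -0.79 from week 6 to week 15 (adjusted p = 0.00555) and a rise of 0.89 to week 29 (adjusted p = 0.00264). The first of these became 0.12 (adjusted p = 0.704) with the muscle score as a covariate, which turned its direction. Kcnq1 fell from week 6 to week 15 by -0.61 (adjusted p = 0.0202), and with the muscle score its difference was 0.000625 (adjusted p = 0.999). Phlda2, also a maternally expressed gene, went the other way, by 1.05 (adjusted p = 0.00281) and -1.40 (adjusted p = 0.00043), as did Slc22a18, by 0.74 and -0.83. Of the other CDK-binding genes listed, Cdkn2d passed no test, and Cdkn3, a phosphatase of CDKs, rose to week 15 by 0.94 (adjusted p = 0.0126) and fell to week 29 by -0.70 (adjusted p = 0.0489). The second of these turned to 0.0498 (adjusted p = 0.956) with the muscle score.

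Proliferation genes changed between the NMBA groups along with the epithelial genes above. Of 16, 3 fell at week 6 against control, none passed at week 15 and 6 fell at week 29, with median differences of -0.52, 0.23 and -0.54 beside -0.03, 0.03 and 0.01 over all genes. Mki67, which marks dividing cells, differed from control by -0.92 (adjusted p = 0.0614), 0.13 and -0.73 (adjusted p = 0.0941). Birc5, Tyms and Plk1 were those that fell at week 6, by -0.73, -0.53 and -0.50. Among the 6 that passed at week 29, Cdc20 (-0.74), Mcm3 (-0.69) and Birc5 (-0.68) fell most. From week 6 to week 15, 15 of the 16 rose, Ccnb2 (1.07), Mki67 (1.05) and Top2a (1.01) most. From week 15 to week 29, 14 fell, Mcm3 (-1.03), Tyms (-1.004) and Ccnb2 (-0.98) most. None of the calls at week 6, and none of those between the NMBA groups, was kept with the muscle score. The mean of the 16 was 8.43 ± 0.08 in control, 7.87 ± 0.03 at week 6, 8.66 ± 0.23 at week 15 and 7.89 ± 0.42 at week 29 (SD, n = 3). Cdkn2c probe set 1370054_at had its highest mean, 9.01, at week 15, where this score was highest, and 1378711_x_at had its highest, 6.11, at week 29, where it was low.

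**Figure D4:**
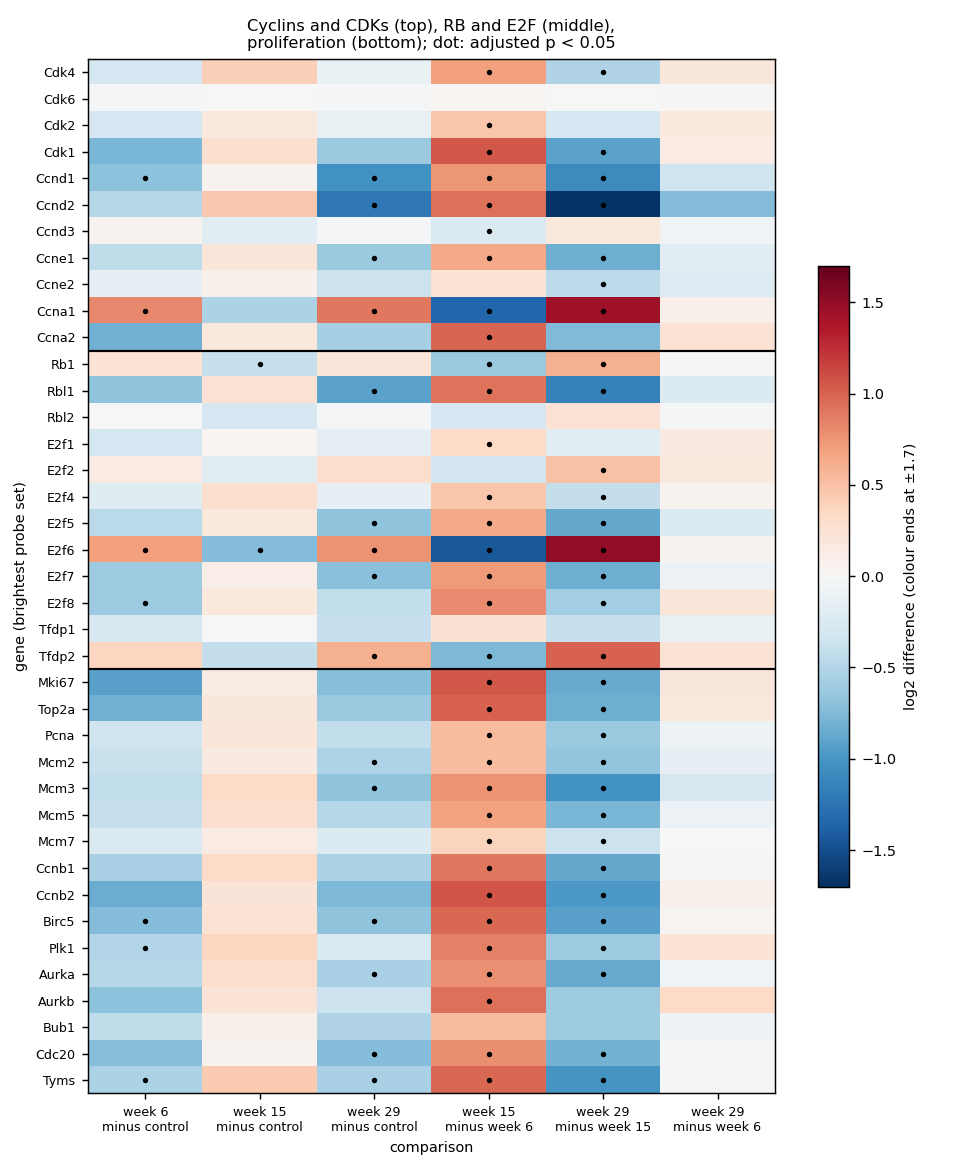
Log2 difference, as colour (red higher, blue lower), of the cyclin and CDK genes, the retinoblastoma and E2F genes and the proliferation genes in each of the 6 comparisons, with 3 arrays per group and a dot where the adjusted p was under 0.05. Of the 16 proliferation genes at the bottom, 15 rose from week 6 to week 15 and 14 fell from there to week 29. Ccna1, E2f6, Tfdp2 and Rb1 were among the genes above them that took the opposite direction.

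Genes whose signal followed an inhibitor most closely over the 12 arrays were listed by Pearson r, as a description without a test, since such arrays share their group differences. Those nearest to Cdkn2a were Washc4 (r = 0.96), Aqp1 (0.93), Tjp1 (0.93), Sox17 (0.92) and Tgoln2 (0.91), of which Tjp1 encodes a tight junction protein and Aqp1 a water channel. Once group means were removed, their r with Cdkn2a was 0.78, 0.68, 0.83, 0.52 and 0.81. The most opposed were Dlgap3 (-0.88), Atp1a4 (-0.86) and Dus3l (-0.84). Cdkn2c was followed by Dennd2c, Nid2-ps16 and Pdcd6, each at 0.98. Cdkn1a probe set 1388674_at was followed by Ndufb1 (0.94), Gadd45b (0.93) and Nfic (0.93), and r with Gadd45b, a stress gene, was 0.95 without group means. Cdkn1c was followed by Plod2, which encodes a collagen-modifying enzyme, Aoc3 and Ank2, each at 0.98. Cdkn2b and Cdkn1b, which changed least, had Ppm1n (0.91), Sult1c2 (0.87) and Ica1 (0.84), and Bpnt2 (0.89), Cbx1 (0.86) and Mier1 (0.83), as their nearest.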

How the data were processed

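RNA of 12 rat esophagus samples, 3 per group, was measured on Affymetrix arrays. The deposited values are log2 probe set signals. Per the submitters' processing notes, the authors used Affymetrix Expression Console, and the sources used here name neither the summarization method nor a filter. Detection calls were not used here, so how far a signal stood above background is unknown, and precision is limited by the number of arrays. Groups came from the labels. After 57 array controls had been dropped from 31099 probe sets, all remaining 31042 were tested, dim ones included. Symbols came from the platform annotation, in which 20826 probe sets had a single symbol, 436 had several (left unnamed) and 9780 were not listed.

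Two-sided tests used lmFit and eBayes of limma 3.58.1 under R 4.3.3, in 1 fit of 4 groups with 8 residual degrees of freedom, adjusted by Benjamini-Hochberg over 31042 probe sets, and called at an adjusted p under 0.05. The fit was tested on simulated data. For lists, the probe set with the highest mean stood for each of 14217 genes. The genes named were all member probe sets, Cdk4, Cdk6, Ccnd1, Rb1, Mdm2 and Mki67, up to 3 called genes per list, comparison and direction by size, and the genes most like each member by Pearson r, 5 for Cdkn2a and 3 for the others. Ezh2 and Cdkn2d were named after their values were seen. The members, lists and tests were chosen with earlier results of these data known. Promoters came from RefSeq, which matched 5 of 6 genes. The alternatives were array medians subtracted, dim probe sets left out, the compared groups fitted alone, a replicate block, the muscle score or the GAPDH 3' minus 5' signal as a covariate, robust and trended eBayes, week 15 arrays left out, and each array left out in turn. The main fit did not pair arrays by replicate number. Arrays of the same number had correlations of deviations from -0.41 to 0.29 over 18 pairs, 8 of them over 0.1. Those of different numbers were not correlated for reference, so whether the numbers pair the arrays was not settled.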

Additional observations from a re-analysis of the deposited data

Results flagged for a closer look

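Between NMBA groups of different weeks, 6 probe set results passed the test of the difference itself. They were 2 of 9 between weeks 15 and 6, beside 37.8% of all probe sets. Between weeks 29 and 15 they were 4 of 9, beside 35.4%, so the counts are no result about the inhibitors as a set. The single control group drops out of these comparisons, and the NMBA groups shared dose and schedule. Without a control group for each week, age and time since NMBA cannot be told apart in them. Cdkn2c 1370054_at had a log2 difference of 0.7421 between weeks 15 and 6 (adjusted p = 0.00335, limma) and by -0.6783 between weeks 29 and 15 (adjusted p = 0.00532). Cdkn1c differed by -1.748 (adjusted p = 8.32e-05) and 1.679 (adjusted p = 8.39e-05) in the same comparisons. Cdkn1a differed between weeks 29 and 15 by 0.9734 in probe set 1388674_at (adjusted p = 0.00261) and by 1.102 in 1387391_at (adjusted p = 0.0117). All 6 involve the week 15 arrays, whose muscle score was the lowest. With that score as a covariate, 0 passed between weeks 15 and 6 and 1, that of Cdkn1c, between weeks 29 and 15. With the GAPDH signal the counts were 1 and 3. With 1 array left out at a time, only the call of Cdkn1a 1387391_at was lost. This was so without replicate 1 of week 15 (0.88, adjusted p = 0.053) and without replicate 3 of week 29 (0.83, adjusted p = 0.0604). No other check for single outlying arrays was made.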

How the results depend on the processing

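Leaving out 1 array at a time changed the side of the threshold in 10 of 612 tested differences of the CDK inhibitor probe sets, and the other alternatives did so in 11 of 367, with no change of sign among called differences. The count of inhibitor probe sets called, 1 at week 15 against control, was 0 with the muscle score. At week 29 it was 1 and became 0 with dim probe sets left out, with the muscle score or with the GAPDH signal. From week 6 to 15 it was 2, against 0 with the muscle score and 1 with the GAPDH signal, and from week 15 to 29 it was 4, against 1 with the muscle score. With 1 array left out the counts ran from 0 to 0, 1 to 1 and 0 to 2 against control at weeks 6, 15 and 29, from 2 to 4 between weeks 15 and 6, from 3 to 4 between weeks 29 and 15 and from 0 to 0 between weeks 29 and 6.

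Counts over all probe sets moved more. Against control, week 6 had 2342 calls, 4391 with the compared groups alone, 4028 without week 15 arrays, 16 with the muscle score, 8 with the GAPDH signal and 1 to 3454 with 1 array left out. Week 15 had 2455, 135 with the groups alone, 0 with the muscle score (881 to 3057 with 1 array left out). Week 29 had 4705, 132 with the GAPDH signal (274 to 6120). Weeks 15 and 6 had 11723, 133 with the muscle score, 4849 with the GAPDH signal (8965 to 11704). Weeks 29 and 15 had 10987, 1020 and 6915 (8115 to 11490), and weeks 29 and 6 had 0 to 0. Of the listed genes, 13 were called at week 6, against 21 of 87 with dim probe sets left out, 38 with the groups alone, 25 without week 15 arrays, 0 with the muscle score and 0 with the GAPDH signal (0 to 25). Week 15 had 11, against 0 with the groups alone and 0 with the muscle score (5 to 16), and week 29 had 31, against 1 with the GAPDH signal (2 to 43). Weeks 15 and 6 had 64, against 2 with the muscle score and 25 with the GAPDH signal (52 to 66), and weeks 29 and 15 had 62, against 7 with the muscle score (45 to 69). Weeks 29 and 6 had 0 to 0. With the muscle score H19 between weeks 15 and 6 became 0.12 (adjusted p = 0.704), Kcnq1 0.000625 (adjusted p = 0.999), and Cdkn3 between weeks 29 and 15 became 0.0498 (adjusted p = 0.956). With the muscle score the SE of Cdkn1c between weeks 15 and 6 was 0.30, against 0.19 without it, and the cause of the lost calls was not tested. With the replicate number as a block, 14, 12, 29, 63, 61 and 0 listed genes were called in the 6 comparisons, and no inhibitor call changed.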
